A study of Mus musculus with 9 samples.

Results

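A set of 10 genes of the lymphocyte lineages was followed in RNA from sorted mesenchymal cells. They are the recombination genes Rag1, Rag2 and Dntt, the B lineage genes Igll1, Vpreb1, Vpreb3 and Cd79a, and the T lineage genes Ptcra, Lck and Cd3e. The list names 10 of the 23420 genes in the deposited counts, and the question was whether B or T precursor RNA accompanied the stroma of bone and of thymus. The levels come from RNA sequencing of 9 libraries from C57BL/6 mice aged 3 to 4 weeks, with no treatment or engineered allele given in the labels. There were 3 libraries each from the thymus, from bone (pelvis, tibia and femur) and from truncal skin (dermis of abdomen and back). Every group was sorted for SCA1, the surface protein encoded by Ly6a, and against antibodies to blood, endothelial and epithelial cells. Those antibodies bound CD45 with its B220 form, CD2, CD4, CD11b, GR-1, TER119, CD41, CD31 and EpCAM. At least 25000 cells were collected per sample, and bone was also crushed after digestion. No label ties a library to an animal, so each p-value reflects spread among these libraries alone, and that spread may be technical. The thymus libraries are labelled 2, 3 and 1-3, and the labels do not explain the last.

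B and T cells build their receptors by cutting and rejoining gene segments. RAG1 and RAG2 form the recombinase that cuts the DNA in precursors of both lineages, and Dntt encodes terminal transferase, which adds nucleotides at the junctions. The lineages differ in the receptor that tests the first rearranged chain. In B precursors, which arise in bone marrow, Igll1 and Vpreb1 encode the surrogate light chain and Cd79a a signalling chain of the pre-B cell receptor. In T precursors, which arise in the thymus, Ptcra encodes the pre-T alpha chain, Cd3e a signalling chain of the T cell receptor, and Lck the kinase that starts its signal.

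Several members lie side by side in the genome, in coordinates of the mm10 build given by the deposited files. Rag1 (chr2:101638252-101649532, minus strand) and Rag2 (chr2:101624748-101632528, plus strand) are neighbours separated by 5723 bases. Igll1 (chr16:16860671-16863985) and Vpreb1 (chr16:16868401-16869255) are neighbours on the minus strand separated by 4415 bases. Dntt lies at chr19:41029275-41059525, Vpreb3 at chr10:75948312-75949646 and Cd79a at chr7:24897511-24902197, all on the plus strand. Ptcra (chr17:46755663-46763712), Lck (chr4:129548344-129573641) and Cd3e (chr9:44998743-45009590) lie on the minus strand. The spans of Rag1 and Rag2 overlap the annotated gene B230118H07Rik, that of Ptcra the noncoding Gm26904, that of Cd3e the antisense Gm48719 and, on its own strand, Gm48720, and that of Lck the microRNA gene Mir8119. The sources used here give no strand setting for the counts, so reads of overlapping genes cannot be fully separated.

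The sequences before the starts of the 4 B and 3 T lineage genes are shown because these genes carry the comparison of B with T lineage RNA, and that of Rag1 because both lineages use it. Each is the 250 bases before the RefSeq start in GRCm38.p6, read 5′ to 3′ on the gene's strand. They are chr2:101649533-101649782 for Rag1, chr16:16863986-16864235 for Igll1, chr16:16869256-16869505 for Vpreb1, chr10:75948050-75948299 for Vpreb3, chr7:24897247-24897496 for Cd79a, chr17:46763713-46763962 for Ptcra, chr4:129558373-129558622 and chr4:129573642-129573891 for the 2 starts of Lck, and chr9:45009612-45009861 for Cd3e. Capitals mark matches, on either strand, to motifs known for lymphoid factors.
Rag1: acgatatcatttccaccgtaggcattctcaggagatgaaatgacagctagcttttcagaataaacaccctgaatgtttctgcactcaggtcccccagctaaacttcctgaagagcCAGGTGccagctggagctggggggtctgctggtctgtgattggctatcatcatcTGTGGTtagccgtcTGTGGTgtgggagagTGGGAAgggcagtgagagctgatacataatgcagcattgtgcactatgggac
Igll1: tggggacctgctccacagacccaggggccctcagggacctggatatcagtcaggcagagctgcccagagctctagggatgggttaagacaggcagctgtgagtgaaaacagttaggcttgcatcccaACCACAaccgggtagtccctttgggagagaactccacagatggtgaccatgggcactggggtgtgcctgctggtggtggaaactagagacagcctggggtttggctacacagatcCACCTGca
Vpreb1: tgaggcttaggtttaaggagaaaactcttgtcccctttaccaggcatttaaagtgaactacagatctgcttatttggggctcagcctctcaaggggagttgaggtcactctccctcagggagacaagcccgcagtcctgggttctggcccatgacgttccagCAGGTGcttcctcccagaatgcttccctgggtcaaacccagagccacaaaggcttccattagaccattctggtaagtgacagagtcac
Vpreb3: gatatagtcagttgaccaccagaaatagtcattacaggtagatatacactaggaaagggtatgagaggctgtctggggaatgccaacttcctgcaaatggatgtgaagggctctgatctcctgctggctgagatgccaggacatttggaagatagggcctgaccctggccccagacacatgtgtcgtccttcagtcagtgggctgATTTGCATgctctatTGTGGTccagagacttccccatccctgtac
Cd79a: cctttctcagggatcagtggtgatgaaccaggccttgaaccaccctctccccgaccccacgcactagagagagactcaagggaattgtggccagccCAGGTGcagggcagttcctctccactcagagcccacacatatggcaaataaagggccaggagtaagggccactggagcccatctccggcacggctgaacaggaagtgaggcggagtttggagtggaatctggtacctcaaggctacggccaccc
Ptcra: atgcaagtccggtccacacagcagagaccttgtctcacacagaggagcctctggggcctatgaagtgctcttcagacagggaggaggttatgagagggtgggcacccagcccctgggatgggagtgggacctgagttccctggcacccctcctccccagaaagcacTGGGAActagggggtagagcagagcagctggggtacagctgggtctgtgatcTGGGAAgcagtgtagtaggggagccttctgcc
Lck, inner start: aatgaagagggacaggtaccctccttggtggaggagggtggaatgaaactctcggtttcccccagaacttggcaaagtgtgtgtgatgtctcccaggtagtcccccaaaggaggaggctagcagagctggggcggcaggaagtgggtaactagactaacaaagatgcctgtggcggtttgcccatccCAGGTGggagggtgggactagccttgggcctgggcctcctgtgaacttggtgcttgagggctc
Lck, outer start: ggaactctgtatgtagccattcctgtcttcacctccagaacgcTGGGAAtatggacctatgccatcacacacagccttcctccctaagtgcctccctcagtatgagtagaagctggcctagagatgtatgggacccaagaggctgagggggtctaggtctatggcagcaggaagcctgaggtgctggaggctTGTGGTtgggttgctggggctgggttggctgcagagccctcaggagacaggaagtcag
Cd3e: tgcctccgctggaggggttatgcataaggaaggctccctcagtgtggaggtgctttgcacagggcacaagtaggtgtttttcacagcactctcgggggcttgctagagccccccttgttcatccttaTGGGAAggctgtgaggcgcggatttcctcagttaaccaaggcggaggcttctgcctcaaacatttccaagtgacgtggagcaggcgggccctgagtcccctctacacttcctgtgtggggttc
The motifs searched were CAGGTG (the E-box bound by E2A), the EBF palindrome, ATTTGCAT (the octamer), TGGGAA (Ikaros) and TGTGGT (RUNX), and no match overlapped another. CAGGTG or its reverse was found in 5 of 10 members (Rag1, Igll1, Vpreb1, Cd79a and Lck), against 17.2% of 32851 RefSeq promoters of the same length. The octamer was found in 1 member, Vpreb3, starting 45 bases before the start, against 1.6% of promoters. TGTGGT was found in 4 members (Rag1, Igll1, Vpreb3 and Lck) against 14.0%, and TGGGAA in 4 members (Rag1, Ptcra, Lck and Cd3e) against 21.6%. The EBF palindrome was found in 0 members, against 0.779% of promoters. Both promoters of Lck were searched. A match describes the letters and is not evidence of a bound site.

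Depth was high in every library, with 78757872 to 116759235 reads on genes. All 10 members were among the 15635 genes tested. Levels are CPM values, which put each gene's reads on a common library total after TMM scaling, with SD over n = 3 libraries. Adjusted p-values are those of edgeR's quasi-likelihood test with Benjamini-Hochberg adjustment over all genes tested, and a gene was called at 0.05. The mesenchymal label was checked against 8 markers such as Col1a1, a collagen chain, and Pdgfrb, a growth factor receptor, which together reached 28830 to 30810 CPM in thymus. Their sum was 35660 to 38400 CPM in bone, and 178500 to 204900 CPM in skin. In skin, Col1a1 and Col1a2 averaged 97240 and 80370 CPM, most of that sum. Pdgfrb and Eng were instead highest in thymus (means of 756.2 and 535.5 CPM), so the sums do not measure purity. Genes of all leukocytes (8 genes, among them Ptprc, which encodes CD45) summed to 41.9 to 140.5 CPM in thymus. In bone they summed to 372.2 to 397.5 CPM, and in skin to 7.18 to 25.0 CPM. The thymus library labelled 3 stood apart within its group at 140.5 CPM, against 41.9 and 64.3 in the other thymus libraries. For several members that moved with it, the fit without it is given as well. For Ptprc and other genes that are not members, no such fit is given. The study's comparisons share libraries, since each tissue enters 2 of them.

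The recombination genes were present in both thymus and bone at levels that the test did not separate. Rag1 stood at 19.1, 58.2 and 29.3 CPM in the thymus libraries 2, 3 and 1-3, at 21.0, 32.2 and 27.2 CPM in bone 1, 2 and 3, and at 0.146, 0 and 0 CPM in skin. The thymus and bone values overlapped, with the thymus library 3 the highest and all skin values far below both. The mean of Rag1 was 35.5 ± 20.3 CPM in thymus and 26.8 ± 5.64 in bone, a log2 difference of 0.41 ± 0.51 (SE; edgeR adjusted p = 0.594). Without the thymus library 3 the thymus mean was 24.2 CPM and the log2 difference turned to -0.15 (edgeR adjusted p = 0.877).

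Rag2 was lower in CPM and more uneven. It stood at 0.923, 3.17 and 2.53 CPM in thymus, at 0.417, 5.22 and 2.31 CPM in bone, and had no read in skin. Bone 2 alone was above every thymus library and bone 1 alone was below every one, so the groups overlapped (log2 difference -0.26 ± 0.88; edgeR adjusted p = 0.856). Without bone 2 the mean of Rag2 in bone fell from 2.65 to 1.36 CPM and the log2 difference turned to 0.70 (edgeR adjusted p = 0.66). It also turned without the thymus library 2, to 0.11 (edgeR adjusted p = 0.953), so these libraries give Rag2 no direction.

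Dntt followed the same outline. It stood at 8.30, 18.3 and 8.78 CPM in thymus, at 9.74, 34.7 and 15.5 CPM in bone, and at 0, 0.0147 and 0 CPM in skin, where 1 read was counted in all. Bone 2 was again the highest library, and the thymus and bone values overlapped (log2 difference -0.76 ± 0.47; edgeR adjusted p = 0.25). Without bone 2 the mean of Dntt in bone fell from 19.99 to 12.6 CPM and the log2 difference was -0.10, while without the thymus library 3 it was -1.22 (edgeR adjusted p = 0.899 and 0.094). Within a library, there were 0.435, 0.315 and 0.300 Dntt reads per Rag1 read in thymus and 0.464, 1.08 and 0.571 in bone, so the lowest bone value lay above the highest thymus value. This ratio was not tested.

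**Figure D1:**
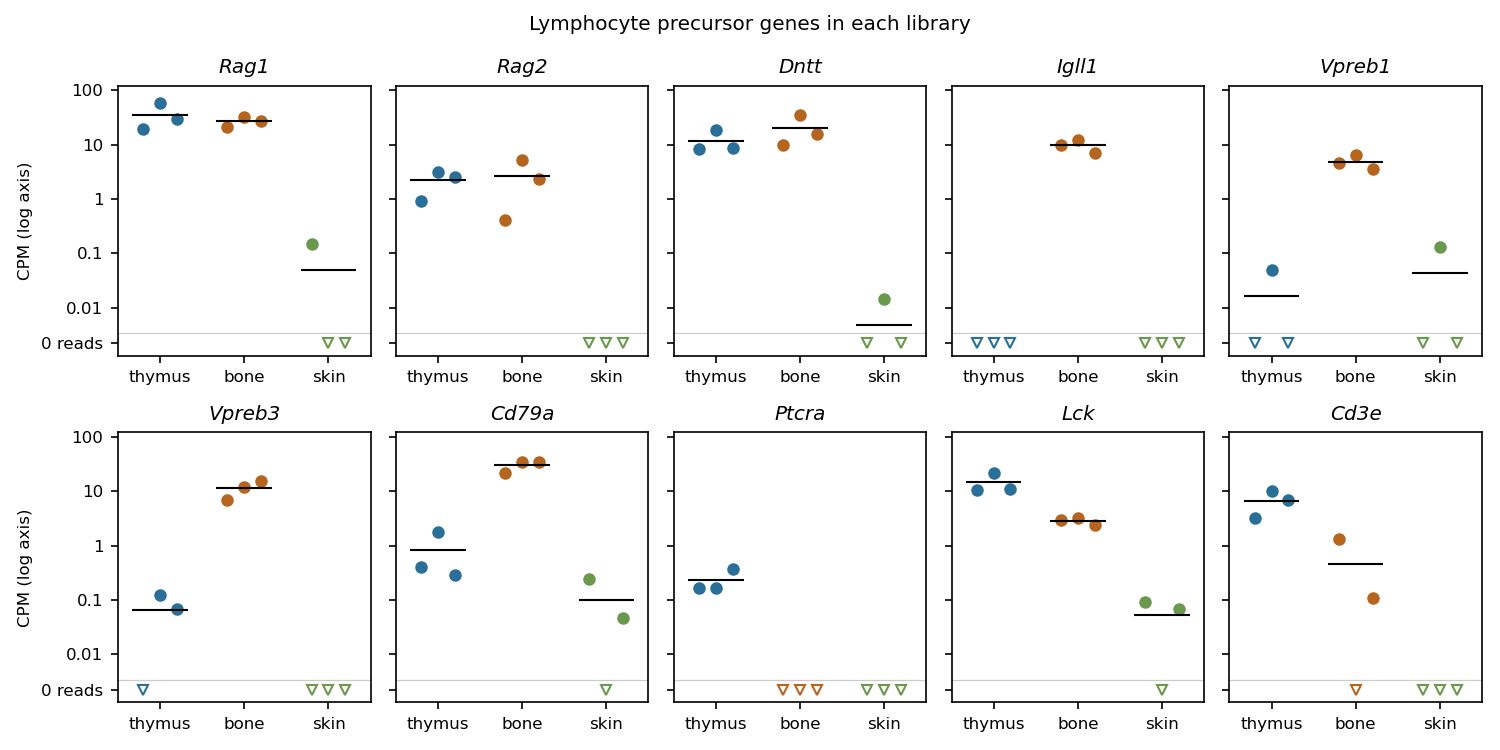
Level of each of the 10 genes in every library, in CPM on a log axis, with 1 point per library in the order of the text, open triangles for libraries with 0 reads and bars for the tissue mean of the 3 libraries. Rag1, Rag2 and Dntt overlap between thymus and bone, while Igll1, Vpreb1, Vpreb3 and Cd79a are high in bone and Ptcra, Lck and Cd3e are highest in thymus.

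The B lineage genes separated bone from thymus in every library. In thymus against bone, 32.6% of all genes tested were called, 16.5% as higher in thymus and 16.1% as higher in bone. All 4 B lineage members were called higher in bone and none higher in thymus. Their median log2 difference was -7.74, beside 0.02 over all genes tested.

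Igll1, the lambda 5 chain of the surrogate light chain, was counted in bone only. It stood at 9.77, 12.2 and 7.16 CPM in the bone libraries, from 1006, 1429 and 660 reads, and had 0 reads in all thymus and skin libraries. All 3 bone libraries were high and the groups did not overlap. Set against a floor of 3 reads over the thymus libraries, Igll1 was at least 1120-fold higher in bone (edgeR adjusted p = 1.69e-05).

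Vpreb1, the partner of Igll1 in the surrogate light chain, stood at 4.58, 6.45 and 3.62 CPM in bone and at 0, 0.0502 and 0 CPM in thymus. Its reads in thymus were 6, all in the library labelled 3, and every bone library lay above every thymus library. The difference was 284-fold (log2 -8.05 ± 1.63; edgeR adjusted p = 0.00298), and the fit without the thymus library 3, which leaves 0 reads there, gave an edgeR adjusted p of 0.00368 and a fitted log2 of -11.89 that is no bound. Vpreb1 has a near copy, Vpreb2, which had 35, 12 and 16 reads in bone and 0 elsewhere. The deposited RPKM of Vpreb1 was above 0 in 3 libraries in which its count was 0, at 0.0482 and 0.119 RPKM in the thymus libraries 2 and 1-3 and at 0.100 RPKM in skin 1, so its low values are uncertain.

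Vpreb3, which in B precursors binds newly made immunoglobulin chains inside the cell, stood at 6.91, 11.8 and 15.4 CPM in bone and at 0, 0.126 and 0.0686 CPM in thymus. The groups did not overlap, and bone was 174-fold higher (log2 -7.43 ± 0.97; edgeR adjusted p = 0.000448). The log2 difference was -6.84 without the thymus library 2 and -8.38 without the thymus library 3, and both fits kept the call.

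Cd79a, the immunoglobulin-alpha chain of the B cell receptor complex, had the highest level of the 4 in bone. It stood at 21.3, 35.0 and 34.3 CPM in bone and at 0.394, 1.76 and 0.284 CPM in thymus. No thymus library reached a bone library, and within thymus the library labelled 3 was the highest. Bone was 36.1-fold higher (log2 -5.21 ± 0.86; edgeR adjusted p = 0.00128). Without the thymus library 3 the log2 difference was -6.46 (edgeR adjusted p = 0.000539).

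The T lineage genes were highest in thymus, with 1 of 3 called higher there and none called higher in bone. Their median log2 difference was 3.84, beside 0.02 over all genes tested, of which 16.5% were called higher in thymus. Lck, the kinase of the T cell receptor signal, stood at 10.6, 21.8 and 11.1 CPM in thymus, at 2.97, 3.21 and 2.40 CPM in bone, and at 0.0899, 0 and 0.0692 CPM in skin. Each thymus library was above each bone library, and bone was above skin. Thymus was 5.08-fold above bone (log2 2.34 ± 0.48; edgeR adjusted p = 0.00301). Without the thymus library 3 the thymus mean of Lck was 10.85 CPM. The log2 difference was then 1.93 and the call was kept (edgeR adjusted p = 0.0302).

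Cd3e, a chain of the CD3 complex, stood at 3.15, 10.0 and 6.93 CPM in thymus, at 1.29, 0 and 0.109 CPM in bone, and had no read in skin. Its thymus and bone values did not overlap, yet the call was missed (14.6-fold; log2 3.84 ± 1.52; edgeR adjusted p = 0.0925, unadjusted p = 0.0367). Bone 1 held 133 of the 143 bone reads. Without bone 1 the log2 difference was 6.99 and Cd3e was called (edgeR adjusted p = 0.00787). Without the thymus library 3 the log2 difference was 3.43 and Cd3e was not called (edgeR adjusted p = 0.203).

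Ptcra, the member most particular to T precursors by its known role, was scarce. It had 20, 20 and 38 reads in the thymus libraries 2, 3 and 1-3, or 0.168, 0.167 and 0.372 CPM, and 0 reads in all bone and skin libraries. Only thymus libraries held reads, but the threshold was missed (edgeR adjusted p = 0.0617, unadjusted p = 0.0216). Against the floor of 3 reads over the bone libraries, thymus was at least 23.8-fold higher.

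**Figure D2:**
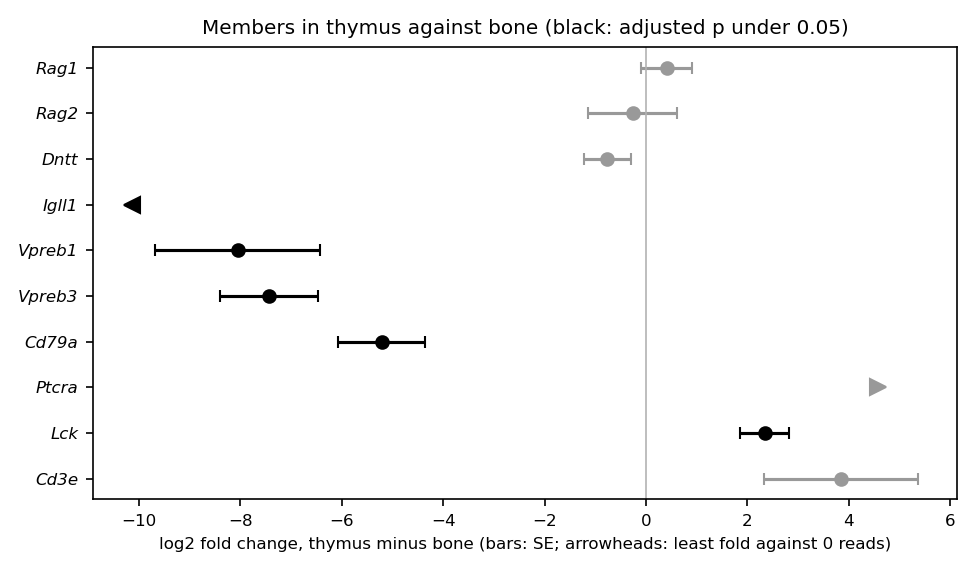
Log2 fold change of each gene in thymus against bone from the fit over all 9 libraries, with bars for the SE, black for genes past the threshold and grey for the others. Arrowheads give the least fold against a floor of 3 reads for Igll1 and Ptcra, which had 0 reads in 1 of the 2 tissues; the B lineage genes lie from -5.21 downwards, Lck lies at 2.34, and Rag1, Rag2 and Dntt lie between -0.76 and 0.41.

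In skin, which is not a site of B or T cell development, the 10 genes were nearly silent. Thymus was higher than skin for 7 members (19.3% of all genes tested were called higher in thymus and 18.3% higher in skin) and bone was higher than skin for 9 members (23.7% higher in bone and 23.4% higher in skin), with no member higher in skin. Scaling by library size alone turned the split over all genes to 7219 against 1239 for thymus and 7474 against 1393 for bone. It moved the median log2 difference of all genes by 0.63 and 0.69. The median log2 difference of the 10 members, with genes at 0 reads set to their bound, was 5.85 in thymus against skin and 7.996 in bone against skin, beside 0.03 over all genes in both.

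Recombination genes were higher in both tissues than in skin. Rag1 was 673-fold higher in thymus (log2 9.36 ± 0.83; edgeR adjusted p = 1.9e-05) and 507-fold higher in bone (log2 8.96 ± 0.82; edgeR adjusted p = 2.01e-05). All 13 skin reads of Rag1 came from skin 1. Without skin 1 the fitted log2 values, no longer bounded, were 14.81 for thymus and 14.40 for bone, and without skin 3 they were 8.76 and 8.35.

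Rag2 was at least 178-fold higher in thymus (edgeR adjusted p = 0.000583) and at least 226-fold higher in bone (edgeR adjusted p = 0.000387) than in skin, where it had 0 reads. Without bone 2 the fitted log2 of bone against skin was 10.05 against 11.05 with it, and the call was kept. Dntt, with 1 skin read, was 2920-fold higher in thymus (95% counting interval 523 to 115000; edgeR adjusted p = 8.56e-06) and 5080-fold higher in bone (911 to 201000; edgeR adjusted p = 5.07e-06). The fitted log2 of Dntt was 13.26 in thymus and 14.02 in bone without skin 2, which held that read, and 11.19 in bone without bone 2.

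B lineage genes in bone were all higher than in skin. Igll1 was at least 805-fold higher (edgeR adjusted p = 1.35e-05), Vpreb3 at least 915-fold (edgeR adjusted p = 0.000111) and Cd79a 284-fold (log2 8.17 ± 1.04; edgeR adjusted p = 0.000153). Vpreb1 was 135-fold higher (log2 6.86 ± 1.54; edgeR adjusted p = 0.00368), with all 9 skin reads in skin 2. The log2 of Vpreb1 was 6.24 without skin 1, 11.98 without skin 2 and 6.25 without skin 3, and that of Cd79a was 10.14 without skin 1.

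In thymus, 2 of the 4 B lineage members, Cd79a and Vpreb3, were called higher than in skin. Of 13 other counted B lineage genes, 8 were called higher in thymus and 1 higher in skin. Their median log2 difference was 4.03, and 19.3% of all genes tested were called higher in thymus. Cd79a stood at 0.247, 0 and 0.0461 CPM in skin, below the lowest thymus value of 0.284 CPM (log2 2.96 ± 0.94; edgeR adjusted p = 0.0322). This call was lost without the thymus library 3 (log2 1.71; edgeR adjusted p = 0.146), and also without bone 2, bone 3, skin 2 or skin 3 (edgeR adjusted p = 0.0529, 0.0527, 0.0848 and 0.117). Without skin 1 it was kept, with a log2 of 4.94. Vpreb3 in thymus was at least 5.25-fold above skin (edgeR adjusted p = 0.0412), with a thymus library and all skin libraries at 0 reads, and this call was kept only without the thymus library 2 or bone 3 when 1 library was left out. Its fitted log2 was 4.73 without the thymus library 3 (edgeR adjusted p = 0.115). Vpreb1 did not pass (edgeR adjusted p = 0.584), and Igll1 had no read in either tissue. Both calls lie close to the threshold.

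T lineage genes in thymus stood well above skin for Lck, by 255-fold (log2 7.99 ± 0.67; edgeR adjusted p = 3.32e-06), and for Cd3e, by at least 544-fold (edgeR adjusted p = 0.00793). Ptcra, at least 18.6-fold above the skin floor, missed the threshold (edgeR adjusted p = 0.0635). In bone, Lck was 50.3-fold above skin (log2 5.65 ± 0.62; edgeR adjusted p = 2.29e-05). Cd3e in bone was at least 37.2-fold above skin (edgeR adjusted p = 0.0329), but without bone 1 the fitted log2 dropped from 8.54 to 5.39 and the call was lost (edgeR adjusted p = 0.0865). That call was also lost without the thymus library 2 or 1-3 or any 1 skin library (edgeR adjusted p of 0.0521 to 0.0819).

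The balance of B and T reads within each library put bone and thymus at opposite ends. Reads of Igll1, Vpreb1, Vpreb3 and Cd79a were set against all reads of these 4 genes and of Ptcra, Lck and Cd3e, with Wilson 95% intervals that cover counting error only. In thymus the B share was 2.76% (2.08 to 3.65; 47 B and 1655 T reads) in library 2, 5.70% (5.03 to 6.46; 231 and 3820 reads) in library 3 and 1.88% (1.36 to 2.59; 36 and 1881 reads) in library 1-3. In bone it was 90.9% (90.1 to 91.7; 4385 and 439 reads), 95.3% (94.8 to 95.8; 7670 and 376 reads) and 96.0% (95.5 to 96.5; 5577 and 231 reads) in libraries 1, 2 and 3. No thymus library came near a bone library, and the means were 3.45 ± 2.00% in thymus and 94.1 ± 2.78% in bone. The thymus value depends on the genes summed: its mean was 10.4% without Lck and 23.6% over the whole B and T lists (15.3 to 32.1% by library), where bone was at 91.7% (91.3 to 92.2%). The share sets B against T lineage RNA and cannot tell precursors from mature cells. Ptcra gave only 78 of the T reads in thymus, and genes of mature B cells summed to 49.5 to 58.8 CPM in bone.

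Skin gave too few reads for a balance. The share was 73.3% (55.6 to 85.8; 22 and 8 reads) in skin 1, 100% (70.1 to 100; 9 and 0 reads) in skin 2 and 40% (16.8 to 68.7; 4 and 6 reads) in skin 3. The intervals of skin 1 and skin 3 overlapped, and those of skin 2 and skin 3 did not. The share depends on gene length, and with summed RPKM in place of reads it was 6.70% in thymus and 97.2% in bone.

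**Figure D3:**
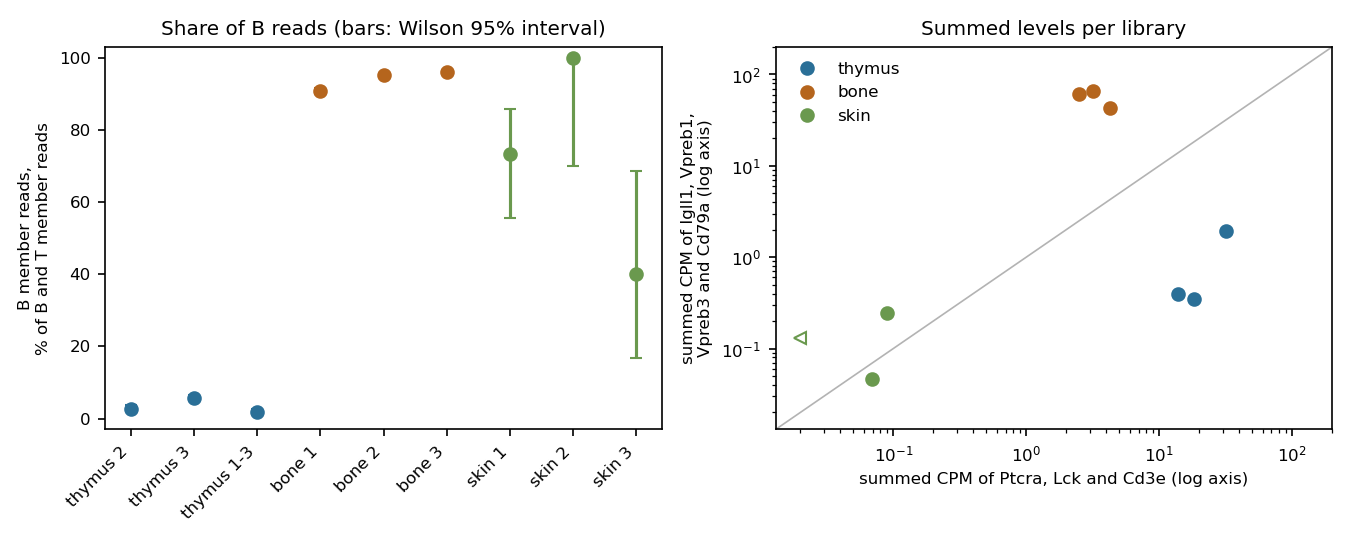
Left, share of B lineage reads among B and T lineage reads of the 7 genes in each library, in percent, with Wilson 95% intervals; right, the summed CPM of the 4 B genes against that of the 3 T genes on log axes, with a grey line of equality and an open triangle for skin 2, whose T sum is 0. The thymus libraries lie between 1.88 and 5.70% and the bone libraries between 90.9 and 96.0%.

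Summed levels showed that each side held a minor amount of reads of the genes listed for the other lineage. The 3 T genes summed to 13.9, 32.0 and 18.4 CPM in thymus and to 4.26, 3.21 and 2.51 CPM in bone. The 4 B genes summed to 42.6, 65.4 and 60.5 CPM in bone and to 0.394, 1.93 and 0.353 CPM in thymus. The T sum of bone was mostly Lck, which made up 306 of 439, 376 of 376 and 221 of 231 T reads in bone 1, 2 and 3. The B sum of thymus was mostly Cd79a, with 47 of 47, 210 of 231 and 29 of 36 B reads in libraries 2, 3 and 1-3. Bone 1 also held 133 Cd3e reads. The surrogate light chain genes in thymus and Ptcra in bone stood at or near 0.

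Per length, the order of the members differed between the tissues. In thymus, mean RPKM was 6.76 ± 3.22 for Lck, 5.65 ± 2.90 for Dntt, 5.45 ± 3.30 for Rag1 and 4.52 ± 2.35 for Cd3e, which did not differ beyond their spread. Cd79a (0.694 ± 0.619 RPKM), Rag2 (0.663 ± 0.364 RPKM) and Ptcra (0.186 ± 0.0875 RPKM) followed, and Vpreb3, Vpreb1 and Igll1 were lowest. In bone, mean RPKM was 23.0 ± 6.36 for Cd79a, 19.5 ± 7.45 for Vpreb3, 11.5 ± 3.36 for Igll1, 9.59 ± 6.53 for Dntt, 6.62 ± 1.93 for Vpreb1 and 4.06 ± 0.949 for Rag1. Neighbours in that order overlapped within their spread, while Lck (1.32 ± 0.164 RPKM), Rag2 (0.796 ± 0.740 RPKM), Cd3e (0.312 ± 0.476 RPKM) and Ptcra (0) were lower. The ratio of Rag1 to Rag2 in RPKM was 10.5, 9.25 and 5.93 in thymus and 25.5, 3.15 and 6.03 in bone, so bone spanned a wider range than thymus.

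Leukocyte RNA was higher in bone than in thymus, as the B lineage genes were and the T lineage genes were not, and its part in these differences was not tested. The thymus libraries held 7.26, 38.6 and 14.1 CPM of Ptprc, the bone libraries 74.4, 73.6 and 81.3 CPM, and the skin libraries 2.27, 0.484 and 1.13 CPM. Thymus was below bone in every library (log2 -1.93 ± 0.60; edgeR adjusted p = 0.0329). Per Ptprc read, there were 2.63, 1.51 and 2.07 Rag1 reads in thymus, against 0.282, 0.438 and 0.335 in bone and 0.0644 in skin 1. Rag1 per Ptprc read was thus higher in each thymus library than in each bone library, although the Rag1 levels overlapped.

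The lineage genes gave the same picture per Ptprc read. T reads of the 3 T genes came to 1.91, 0.829 and 1.30 per Ptprc read in thymus and 0.0573, 0.0435 and 0.0308 in bone. B reads of the 4 B genes came to 0.573, 0.888 and 0.744 per Ptprc read in bone and 0.0543, 0.0501 and 0.0250 in thymus. The groups did not overlap for either ratio, and these ratios were not tested. In bulk RNA, fewer cells of a type and less RNA per cell cannot be told apart. Of the lineage antibodies, those to CD45, B220, CD4 and CD2 bind products of Ptprc, Cd4 and Cd2, and Cd4 (18.2 ± 8.92 CPM in thymus, 2.58 ± 0.429 in bone) and Cd2 (3.77 ± 2.17 and 3.11 ± 1.11 CPM) were nonetheless counted in both.

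Beyond the members, the other genes of the B lineage moved with them. Of 13 counted B lineage genes that are not members, 9 were higher in bone than in thymus and 0 higher in thymus, with a median log2 difference of -5.74. Over all genes tested, 16.1% were called higher in bone. Pax5, the factor that holds B cell identity, had 4 reads in the thymus libraries together and stood at 5.46 ± 1.01 CPM in bone (log2 -8.72 ± 1.03; edgeR adjusted p = 5.58e-05). Cd79b, the partner of Cd79a, stood at 0.527 ± 0.372 CPM in thymus and 29.1 ± 2.20 in bone (edgeR adjusted p = 0.000139). Btk, the kinase of the B cell receptor signal, stood at 0.264 ± 0.126 and 14.9 ± 0.248 CPM.

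Spib, Blnk, Cd72 and Vpreb2 were the 4 not called. Vpreb2 had 0 reads in thymus and few in bone (edgeR adjusted p = 0.0701). Cd72 stood at 3.03 ± 0.387 CPM in thymus and 8.60 ± 0.882 in bone (edgeR adjusted p = 0.101). Spib, a transcription factor of B cells and of plasmacytoid dendritic cells, stood at 36.8, 30.9 and 35.4 CPM in thymus and 38.0 ± 3.41 CPM in bone (log2 -0.15 ± 0.16; edgeR adjusted p = 0.513), with 0.240 ± 0.0524 CPM in skin. Blnk, an adaptor of the B cell receptor signal, stood at 10.98 ± 2.76 CPM in thymus and 21.7 ± 3.59 in bone (edgeR adjusted p = 0.101). Spib and Blnk together held 86.2% of the reads of the whole B list in thymus and 22.0% in bone. The B share in thymus over the whole lists was 3.62% without Spib and Blnk, an alternative chosen after seeing the data.

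The other T lineage genes moved the opposite way. Of 19 that are not members, 12 were higher in thymus than in bone and 0 higher in bone, with a median log2 difference of 3.28. Over all genes tested, 16.5% were called higher in thymus. Cd8a and Cd8b1, the chains of the CD8 coreceptor, stood at 16.9 ± 10.0 and 13.5 ± 5.80 CPM in thymus against 0.586 ± 0.718 and 0.105 ± 0.182 CPM in bone (edgeR adjusted p = 0.0085 and 0.00329). Themis, needed for T cell selection, stood at 2.99, 5.32 and 3.62 CPM in thymus and had 0 reads in bone and skin (at least 416-fold above bone; edgeR adjusted p = 0.000282). Tcf7, a factor of early T cells, stood at 41.6 ± 13.1 CPM in thymus and 4.88 ± 1.19 in bone (edgeR adjusted p = 0.00685). Cd3d and Cd5 missed the threshold (edgeR adjusted p = 0.0534 and 0.0503), as did Cd2 and Cd28 (edgeR adjusted p = 0.729 and 0.473).

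**Figure D4:**
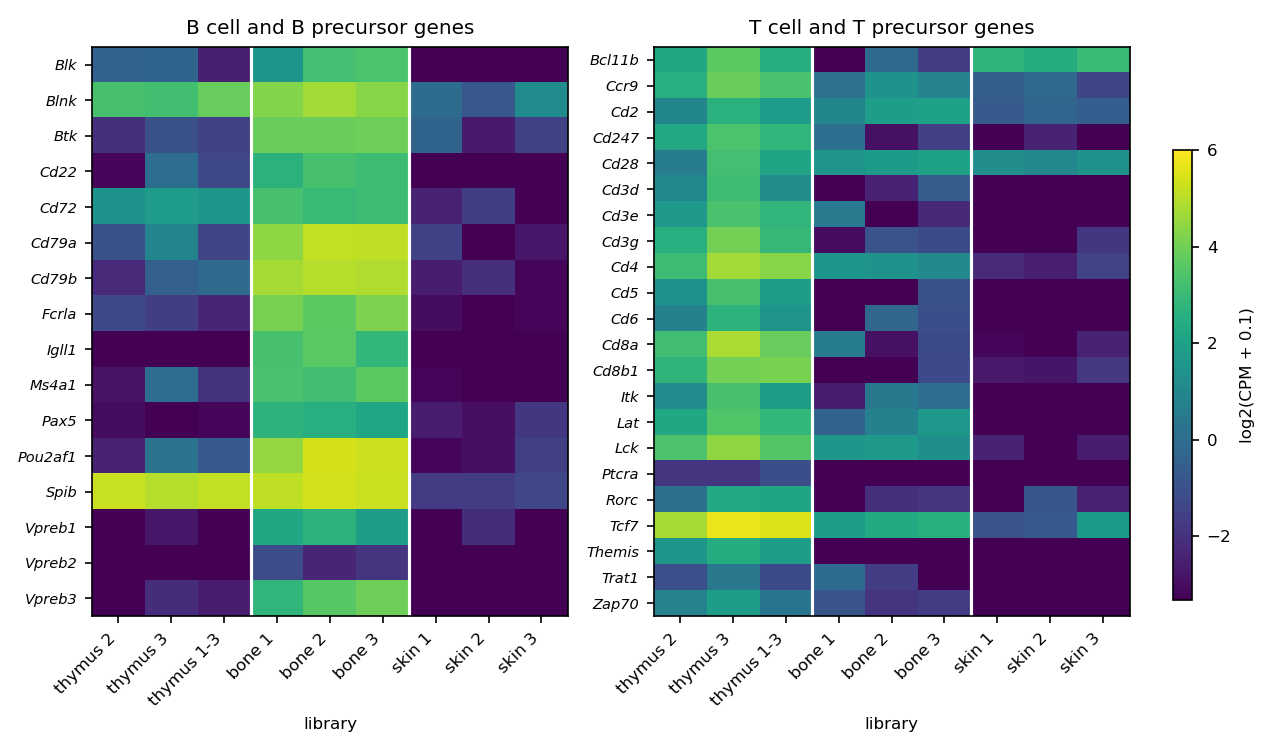
Levels of B lineage genes (left) and T lineage genes (right) in every library, members included, as log2 of CPM plus 0.1. B lineage genes apart from Spib are brighter in bone than in thymus, T lineage genes are mostly brightest in thymus, and Bcl11b is present in skin as well as in thymus.

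General genes of recombination and end joining, which act in many cell types, were higher in bone or did not pass. Of 11 that are not members, 0 were higher in thymus and 4 were higher in bone (Dclre1c, Prkdc, Hmgb2 and Xrcc6), with a median log2 difference of -0.22. Over all genes tested, 16.5% were called higher in thymus and 16.1% higher in bone. Xrcc6 lay close to the threshold (log2 -0.51; edgeR adjusted p = 0.0441). Dclre1c, the nuclease Artemis that opens hairpins, averaged 5.51 ± 0.589 CPM in thymus, and its bone mean of 12.5 ± 0.150 CPM was higher, with 2.20 ± 0.462 CPM for skin (edgeR adjusted p = 0.00317). Prkdc, the kinase that acts with it, stood at 17.1 ± 2.37, 32.1 ± 1.93 and 8.31 ± 1.49 CPM (edgeR adjusted p = 0.00218 for thymus against bone). Lig4 and Xrcc4, which seal the ends, did not pass between thymus and bone (edgeR adjusted p = 0.717 and 0.477).

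Markers of myeloid cells, of all leukocytes and of mature B cells were more abundant in bone, and their part in the differences above was not tested. All 9 counted myeloid genes were higher in bone than in thymus, with sums of 2651 to 3697 CPM in bone, against 13.7 to 44.0 CPM for thymus and 36.6 to 83.7 CPM for skin. Of the leukocyte list, 7 of 8 genes were higher in bone than in thymus and 0 higher in thymus. For this and the other lists here, 16.1% of all genes tested were called higher in bone and 16.5% higher in thymus. Of 6 tested genes of mature B cells, 5 were higher in bone, among them Ms4a1, which encodes CD20, at 10.3 ± 1.85 CPM in bone and 0.376 ± 0.482 in thymus (edgeR adjusted p = 0.00265). That list summed to 49.5 to 58.8 CPM in bone and 3.35 to 6.32 in thymus. Of 7 genes listed for mature T cells, 0 were higher in thymus and 2 in bone, among them Klf2, which many other cells also express.

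By the likeness of their levels over the 9 libraries, Rag1 and Dntt were alike, both present in thymus and bone and near 0 in skin. Likeness was Pearson's r of log2 of CPM plus 0.1, given as a description, since libraries of a tissue share its whole profile. Rag1 had r = 0.98 with Dntt, 0.95 with the T lineage gene Lck and 0.93 with Rag2. Its closest genes were Sh2d2a (r = 0.99), Sec63, Ttc14, Thoc2 and Zfp871. All of these ranked above Dntt, among them Sec63, which averaged 106.1 CPM in skin, so a high r is not particular to recombination genes. Cd79a had r = 0.96 with Vpreb3, 0.94 with Igll1 and 0.91 with Vpreb1, and its closest genes were Fam49b (r = 0.995), Tnfsf11, Slc28a2, Samsn1 and Cd300a. Cd3e was closest to Cd8a and Cd247, another chain of the T cell receptor complex (r = 0.99 for both), then to 1200011I18Rik, Higd1b and Notch4. Cd79a and Cd3e had r = 0.01 with each other.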

How the data were processed

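RNA sequencing of 9 libraries was analysed from the authors' tables. The deposited counts are whole reads per gene, with 5 summary lines (5.05 to 14.8% of reads) that were left out. The deposited RPKM tables give the authors' RPKM and coordinates, and a deposited signal, about 98.5 to 99.1 times the read count, used only to look at Vpreb1. Per the submitters' processing notes, CASAVA 1.8.2, HTSeq 0.5.4 and mm10 were used. The sources used here name no aligner, annotation or strand setting.

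The test was the robust quasi-likelihood test of edgeR 4.0.16 (R 4.3.3) on the counts, after TMM scaling and filterByExpr by tissue, with all 9 libraries in 1 fit without a block. Benjamini-Hochberg adjustment was used with a threshold of 0.05, and each SE is the log2 difference over the root of F. The scripts were tested on simulated data. For a group with 0 reads a floor of 3 reads over its libraries was used (0.0088 CPM for thymus, 0.0096 CPM for bone, 0.0123 CPM for skin). Intervals and floors cover counting error only.

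The members and 14 gene lists were chosen with earlier results of these data known. Named genes are the members, up to 4 genes of each list with the smallest p in thymus against bone, Ptprc, Cd4, Cd2 and Ly6a, and the 5 genes most like Rag1, Cd79a and Cd3e with at least 1 CPM in their highest tissue. Other genes of the B, T and recombination lists given here were chosen after their values were seen, and a few genes that the rule names are not reported here.

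Alternatives were DESeq2 1.42.0, factors by RLE, by upper quartile or by library size alone, a filter of 1 CPM or none, limma 3.58.1 on log2 of RPKM plus 1 or plus 0.1, a replicate block, only the 2 tissues compared, and each library left out.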

Additional observations from a re-analysis of the deposited data

How the results depend on the processing

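No called member changed direction under any alternative run, but uncalled differences turned in sign in some: Rag1 and Rag2 in thymus against bone with a library left out, and Vpreb1 in thymus against skin. Over the alternatives that keep all libraries, 287 member values kept their status, called or uncalled, 8 gained a call and 15 lost one. With a library left out, 251 kept their status, 1 gained a call and 18 lost one. The values that kept their status include many that were never called. Igll1, Vpreb1, Vpreb3, Cd79a and Lck were called in all 20 alternatives of thymus against bone, and Rag1, Rag2 and Dntt in none. Cd3e was called there in 5 of 20 and Ptcra in 1 of 17. Against skin, the calls of Cd79a in thymus held in 10 of 20, of Vpreb3 in thymus in 8 of 19 and of Cd3e in bone in 9 of 19. The cause of these changes was not tested, and reads of Ptcra and of the B genes in thymus were few.

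Same-numbered libraries deviated from their tissue means with correlations of -0.044 to 0.088. The highest were thymus 3 with skin 3 (0.088) and thymus 2 with skin 2 (0.057), both same-numbered. A check on 3 libraries per tissue cannot decide whether the numbers pair libraries. With a replicate block, 1663 genes and 2 members were higher in thymus than in bone, against 2584 and 1 without it.

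Limma on RPKM called 2 members higher in thymus than in bone with a pseudocount of 1 or 0.1, and 3 without the filter. It called 4 members higher in bone in each of these fits. Over all genes, it called 2740 and 2638 of 12279 higher in thymus with the filter, and 2451 of 23034 without it. It called 2462, 2321 and 2467 genes higher in bone. In thymus against skin it called 4 members with a pseudocount of 1, with 8 members past its filter. It called 6482 genes higher and 1173 lower in thymus than in skin, or 6557 and 1188 with a pseudocount of 0.1, or 5820 and 1155 without the filter. For bone against skin these were 6218 and 1534, 6219 and 1529, and 6161 and 1448. Library size alone gave 7219 and 1239 for thymus and 7474 and 1393 for bone.

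Leaving out 1 library gave 1977 to 2742 genes higher in thymus and 2008 to 2663 higher in bone for that pair, 2333 to 3095 and 2249 to 2908 for thymus and skin, and 2985 to 3677 and 3018 to 3693 for bone and skin. Members called were 1 to 2 higher in thymus and 4 in bone, 5 to 7 in thymus against skin, and 8 to 9 in bone against skin.

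The B share in thymus was 23.6% with whole lists, 10.4% without Lck and 6.70% with summed RPKM. In bone it was 99.0% without Lck, 97.2% with summed RPKM and 89.6% with whole lists without Spib and Blnk. In skin it was 15.6% with whole lists and 6.91% without Spib and Blnk.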

Other observations

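Of all genes tested in thymus against bone, 16.1% were called higher in bone and 16.5% higher in thymus. These shares stand beside each list count in this section. Genes of early blood and lymphoid progenitors were mostly higher in bone. Of 10, 6 were higher in bone than in thymus and 1 was higher in thymus, and the list summed to 91.7 to 176.2 CPM in bone, against 71.3 to 84.9 CPM for thymus and 7.37 to 9.58 CPM for skin. Kit, the receptor for stem cell factor, stood at 15.4 ± 11.5 CPM in bone and 0.638 ± 0.0307 in thymus (edgeR adjusted p = 0.00406). Myb, a factor of blood progenitors, stood at 48.2 ± 5.29 CPM in bone and 6.84 ± 3.54 in thymus (edgeR adjusted p = 0.00117).

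Genes listed for plasmacytoid dendritic cells were split. Of 8, 3 were higher in thymus (Irf8, Ccr9 and Bst2) and 2 higher in bone, and Siglech, their surface lectin, was the clearest of the latter at 4.63 ± 1.11 CPM in bone and 0.153 ± 0.0886 in thymus (edgeR adjusted p = 0.000315). Irf8, a factor of dendritic and B cells, averaged 96.7 ± 12.9 CPM in thymus, against 22.4 ± 1.72 CPM for bone and 3.46 ± 1.09 CPM for skin. Of 7 tested genes of natural killer cells, 1 was higher in bone, Nkg7, and 0 higher in thymus. That count is near the 16.1% of all genes tested that were called higher in bone. Of 5 tested genes of the red cell lineage, 3 were higher in bone and 0 in thymus.

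Of 7 tested genes of thymic epithelium, 3 were higher in thymus than in bone, among them Krt8 at 3.19 ± 1.45 CPM in thymus, with few reads in bone (edgeR adjusted p = 0.000322), and Aire at 0.527 ± 0.364 CPM in thymus and 0 reads in bone (edgeR adjusted p = 0.0274). Of 6 endothelial genes, 2 were higher in thymus than in bone, Emcn and Kdr, beside 16.5% of all genes tested. Cdh5 and Tek did not pass, and the sums of the list overlapped (59.3 to 96.5 CPM in thymus, 58.2 to 72.4 in bone). Of the 8 mesenchymal markers, 4 were higher in thymus, among them Eng and Pdgfrb, and 2 in bone, Col1a1 and Col1a2.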
